A study of Saccharomyces cerevisiae with 4 samples.

Results

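The yeast genome array used here carries 1032 probe sets for short open reading frames (ORFs) that the array's design calls non-annotated and attributes to SAGE, out of 9275 probe sets that are not controls. SAGE, serial analysis of gene expression, counts short sequence tags cut from the messenger RNAs of a cell. The 1032 sets were found by the word SAGE in the deposited target description of each probe set. A further 4 sets held those letters only inside the words dosage or passage and were left out. Of the 1032, 1004 were described by strand and position, each with 100% identity to the chromosome, and 28 by 1 of 24 ORF names.

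SAGE tags that fell between the genes of the first yeast annotation pointed to transcripts that the annotation lacked. That annotation had passed over most short ORFs, because short ORFs also arise by chance in any genome. Some of these ORFs have since been given gene names, and the encoded small proteins include subunits of mitochondrial enzymes, assembly factors and chromatin proteins. Others lie beside or across from longer genes and remain unnamed.

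The study measured poly(A)-enriched RNA of budding yeast (Saccharomyces cerevisiae) transformants that overexpressed KIN28 or POG1, before (0 min) and 60 min into treatment with 200 mM lithium chloride. KIN28 encodes the kinase of the general transcription factor TFIIH, and POG1 a nuclear factor linked to recovery from pheromone arrest. Both are named in the title for the stress sensitivity of rsp5 mutants, whose ubiquitin ligase is altered. The 4 arrays were KIN28 at 0 min, KIN28 at 60 min, POG1 at 0 min and POG1 at 60 min, 1 array for each. All cells grew at 25 °C in synthetic medium with 2% glucose. The growth note names medium lacking leucine, or leucine and uracil, the treatment note also names medium lacking uracil alone, and neither says which transformant had which. Neither the genotype at RSP5 nor the use of 1 flask for both times is given, so "culture" stands below for the 2 arrays of 1 overexpressed gene. A culture with an empty vector and an untreated culture at 60 min were not analysed here, so a change from 0 to 60 min holds the effect of lithium and that of time.

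The deposited intensity of each probe set was divided by the median of its array, which was 41.81, 54.27, 60.56 and 48.01 in the order above, and signals are given below as multiples of that median. The overexpressed genes bore out the labels. KIN28 read 71.9 and 64.9 in its own culture against 1.16 and 0.873 in the other, and POG1 read 58.2 and 75.1 in its own culture against 0.219 and 0.196. The lithium-responsive genes HSP12, CTT1, GPP2 and ALD3 were 15.9- to 54.6-fold higher at 60 min, and NSR1, which encodes a nucleolar protein, was 7.08- and 11.2-fold lower. The control sets at the 3′ end of ACT1 read 1.31 to 1.92 times those at its 5′ end, and for SRB4 the ratio was 3.7 to 7.5, highest in KIN28 at 0 min.

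The 921 distinct regions lay on all 16 chromosomes, from 20 on chromosome VI to 106 on chromosome IV, with 446 on the forward and 475 on the reverse strand. They were 135 to 300 nt long with a median of 168 nt. All 921 lengths were multiples of 3, equal to 45 to 100 codons. No sequence was read, so start and stop codons were not checked. The regions are called frames below because the array describes them as ORFs. The platform annotation matched 119 probe sets to 1 gene, 97 genes in all, of which 46 now have a gene symbol and 51 only a systematic name. It matched 5 sets to several genes and 908 to none. For 90 of the 96 sets with both a position and 1 gene, the gene lies on the chromosome that the description gives. The other 6 were matched to a gene on a different chromosome, among them COG3 and a subtelomeric pair, YAL063C-A and YAL064W. Positions below are those of the deposited descriptions, whose genome build is not named there.

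Signals were read against 7 negative controls, probe sets for 4 mouse genes and for 3 parts of a Bacillus subtilis trp transcript. Their medians were 0.0347, 0.0238, 0.0907 and 0.0502 on the 4 arrays. The highest 95th percentile of any array, 0.385, was taken as the floor, and it came from POG1 at 60 min. On the KIN28 arrays no negative control was over 0.0682. Antisense control sets were not among the 7 and read up to 0.569, 0.341, 0.807 and 0.68 on the 4 arrays. Adding them would put the floor at 0.508 and leave 272 SAGE ORF sets above it on all 4 arrays.

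Of the 1032 SAGE ORF sets, 321 (31.1%) were above the floor on all 4 arrays, 331 on some and 380 (36.8%) on none. With every B. subtilis control set counted as a negative control the floor would be 1.84, and 114 sets would be above it on all 4 arrays. Over all 9275 probe sets the share above the floor on all 4 arrays was 60.1%. The number above the floor was 466 and 450 on the KIN28 arrays and 488 and 478 on the POG1 arrays. Sets matched to 1 gene were above the floor on all 4 arrays more often, 71 of 119 (59.7%), than sets matched to none, 249 of 908 (27.4%). For comparison, the share was 73.7% of 6321 annotated ORFs, 17.4% of 454 ORFs that the array describes as questionable and 19.7% of 1137 sets for windows of chromosome sequence. The median SAGE ORF signal was 0.321, 0.319, 0.349 and 0.344, under the floor on every array and above the median of the negative controls on every array.

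**Figure D1:**
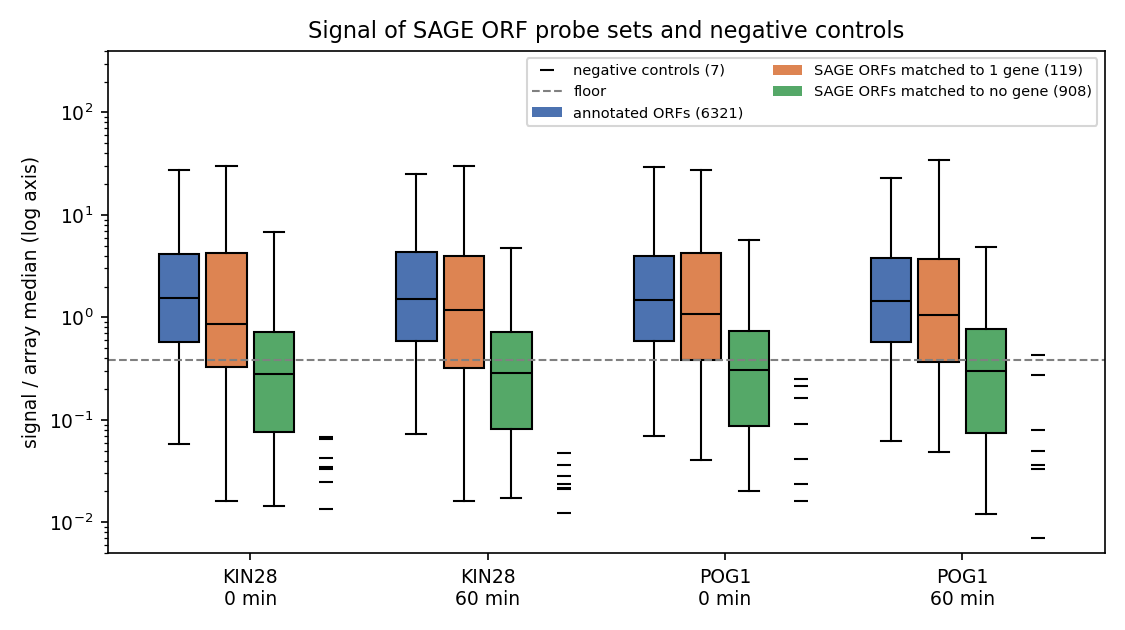
Signal over the array median on a log axis for the 4 arrays, for annotated ORFs, SAGE ORFs matched to 1 gene and SAGE ORFs matched to no gene. Boxes span the quartiles with the median as a line, whiskers run from the 5th to the 95th percentile, short black marks are the 7 negative controls and the dashed line is the floor at 0.385. SAGE ORFs matched to 1 gene have medians of 0.863 to 1.17, and those matched to none have medians of 0.28 to 0.307, below the floor.

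Median length and the share on the forward strand were alike for regions above the floor on all 4 arrays and on none. The spread of lengths was not compared. The median length was 165 nt both for the 286 regions above the floor on all 4 arrays and for the 334 above it on none. The forward strand held 47.6% of the former and 46.4% of the latter. Beside the floor itself, the sets whose mean signal lay just above it were 5292_at, with 0.219, 0.504, 0.267 and 0.553, and 5845_at, with 0.424, 0.296, 0.491 and 0.342. Just below it lay 4698_at, with 0.488, 0.021, 0.723 and 0.298, and 7044_at, with 0.675, 0.154, 0.449 and 0.245.

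A group of 23 sets read over 10 times the array median on all 4 arrays, 8 of them matched to 1 gene and 15 to none. The highest signals came from sets whose description names YDR524C-A and which the platform annotation matches to YDR524C-B. The set 5926_g_at read 119.6, 110.0, 128.0 and 118.0 in the order KIN28 at 0 and 60 min, then POG1 at 0 and 60 min, and the set 5925_at read 99.8, 96.1, 119 and 109. All 4 arrays thus gave nearly the same high signal, and that order of arrays is kept below.

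Without a gene match, the brightest regions were chrXIV:94941-95090 on the forward strand, with 79.8, 63.8, 71.0 and 69.2, and chrXIII:671528-671701 on the reverse strand, with 90.7, 56.9, 69.7 and 60.5. Both sets carry the suffix _i, which marks a set with fewer probes than usual. A second set for the chrXIII region, 9228_r_at, read 3.69, 3.0, 5.14 and 4.83, also above the floor throughout. MEO1 (chrII:490774-490932, forward) read 63.6, 84.6, 52.6 and 72.2 with 7046_s_at and 0.459, 1.56, 0.623 and 1.02 with 7045_i_at for the same positions. YCR024C-B (chrIII:162307-162573, reverse) read 47.7, 50.8, 52.5 and 62.5, and the unmatched region next to it on the same strand, chrIII:162144-162278, read 17.6, 21.7, 21.0 and 21.6. Another set for YDR524C-B, 5887_i_at, read 34.8, 28.8, 39.8 and 38.4, and the sets 7034_i_at and 7035_s_at for MEO1 read 58.4, 58.6, 51.0 and 57.2, and 29.4, 37.7, 25.8 and 34.1. The 12 brightest sets also held chrIII:130174-130308 reverse, with 27.8, 38.5, 32.2 and 37.9, chrVII:533928-534068 reverse, with 37.2, 21.2, 46.5 and 23.6, and chrIV:34050-34184 reverse, with 20.9, 28.1, 23.4 and 27.9. Of these only the region on chromosome VII was near a 2-fold difference, 1.75- and 1.97-fold lower at 60 min. None of the 23 sets over 10 times the array median on all 4 arrays passed the test for a change at 60 min described below. That choice leaves out bright sets that fell under this level, such as 5467_f_at, which read 56.4, 8.98, 55.2 and 6.0. The share that passed among all probe sets over this level was not computed. The count thus does not set the SAGE ORFs apart from other bright sets. Signal also depends on how well a probe set hybridizes, so the order of the bright SAGE ORF sets is not an order of RNA amounts.

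Several regions were read by more than 1 set, and the readings did not always match. Among 93 pairs of sets for the same region, 4 pairs were both above the floor on all 4 arrays and 29 pairs were both above it on none. In 12 pairs, 1 set was above the floor on all 4 arrays and the other on none. Most such sets carry a suffix, as 199 of the 1032 do, which marks sets that can detect related sequences or have fewer probes.

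A set was compared between arrays when it was above the floor on at least 1 of them, with values under the floor set to it. In the KIN28 culture, 542 SAGE ORF sets were compared between 60 and 0 min. Of these, 41 (7.56%) were at least 2-fold higher at 60 min, against 11.3% of all probe sets, and 51 (9.41%) were at least 2-fold lower, against 11.4%. In the POG1 culture, 586 were compared, of which 57 (9.73%) were higher, against 11.2% of all sets, and 69 (11.8%) were lower, against 13.2%. The median log2 change was −0.03 with KIN28 and −0.05 with POG1, beside 0.03 and 0.0 over all sets. These calls compare single arrays and have no replicate check, and a lower signal from fewer cells that express a transcript cannot be told apart from less RNA per cell. They also depend on the scaling: higher calls were 44.6% of all KIN28 calls, but 74.6% with no scaling and 79.8% with scaling by the bacterial hybridization controls. In POG1 the share was 45.2%, and 23.5% and 23.7% under these scalings. With no scaling the median over all sets moved to 0.37 in KIN28 and −0.31 in POG1, and with the hybridization controls it moved to 0.45 and −0.3.

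No SAGE ORF set changed at least 2-fold in opposite directions in the 2 cultures, beside 11 (0.143%) of all 7701 sets above the floor on any array. The 23 sets higher in both cultures were 56.1% of those higher with KIN28 and 40.4% of those higher with POG1, and the 29 lower in both were 56.9% and 42.0% of the lower ones. Out of the 652 SAGE ORF sets above the floor on any array, 3.53% were higher and 4.45% lower in both cultures, beside 5.77% and 6.77% of all sets. Over the 321 sets above the floor on all 4 arrays, the 2 changes had a Pearson correlation of 0.7 and a Spearman correlation of 0.6 across sets, which share arrays and are not independent replicates. For 52 of the 321, the 2 changes were at least 2-fold apart, and the median gap was 0.47 on the log2 scale.

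To test for a change shared by the cultures, limma was fitted to all 6905 sets above the floor on at least 2 arrays. Culture was a block and time the effect. The cultures stood in for replicates, which left 1 residual degree of freedom per set beside 4.207 of the shared prior. The variance of a set thus came mostly from the prior over all sets, and less from its own gap between the cultures. Of 505 SAGE ORF sets tested, 29 (5.74%) rose at an adjusted p under 0.05, against 7.34% of all sets, and 37 (7.33%) fell, against 8.69%. With a floor at the 20th percentile 16 rose and 17 fell, and with no filter on dim sets none passed, although 57 higher and 62 lower had an unadjusted p under 0.05. The 29 sets that rose stood for 29 regions or genes and the 37 that fell for 35. Among them, 4 of the 29 and 4 of the 37 were above the floor at 1 time only. Such a set entered the test through the arrays where it was high and had to differ, so its p is not given below. Fitted on sets above the floor on all 4 arrays, 25 rose and 32 fell. The rises ran from 1.03 to 2.69 and the falls from −1.13 to −2.93 on the log2 scale. Of the sets that rose, 6 match 1 gene and 22 none, and of those that fell, 5 match 1 gene and 32 none.

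**Figure D2:**
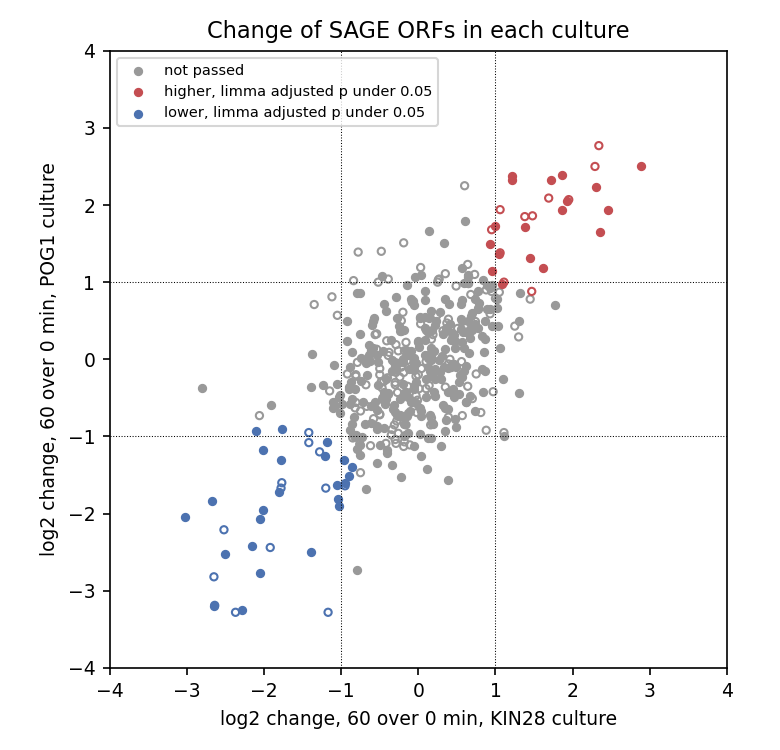
Log2 change from 0 to 60 min in the KIN28 culture (x axis) and in the POG1 culture (y axis) for the 476 SAGE ORF sets compared in both. Filled points are the 321 sets above the floor on all 4 arrays, open points the 155 with at least 1 array at the floor, colours mark the 29 that rose and the 37 that fell by the limma test, and dotted lines mark a 2-fold change. The upper left and lower right corners beyond the dotted lines hold no point.

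The largest fitted rise was at chrXII:390278-390421 on the forward strand (9849_at), a frame of 144 nt with no gene match. It read 0.745 and 5.51 with KIN28 and 0.877 and 4.97 with POG1. It was thus above the floor from the start and 7.39- and 5.66-fold higher at 60 min, with a fitted log2 change of 2.69 ± 0.26 (SE) and a limma adjusted p of 0.00963. Sets that began under the floor have only a lower bound, so their rises cannot be ranked against it.

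Some regions crossed the floor only at 60 min. The set 10428_at, chrXI:46506-46670 forward, read 0.0194 and 1.96 with KIN28 and 0.0177 and 2.63 with POG1. Both cultures began below the median of the negative controls, so the signal was at least 5.08- and 6.84-fold higher at 60 min. The set 10807_at, chrX:448028-448162 reverse, read 0.101 and 1.89, then 0.249 and 2.18, which is at least 4.89- and 5.65-fold. The set 10457_at, chrXI:145707-145880 forward, read 0.188 and 1.48, then 0.233 and 1.62, at least 3.85- and 4.2-fold. In all of these the arrays of 60 min lay above those of 0 min in both cultures. That follows from their choice as sets above the floor at 60 min only. The region chrXI:142825-142992 on the reverse strand was 3.63- and 3.8-fold higher, from 0.586 to 2.13 and from 0.668 to 2.54 (limma adjusted p 0.0135).

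The remaining regions without a gene among the 10 rises of smallest p were measured nearly throughout. At chrIV:160791-160925 forward (5879_at) the signal went from 0.61 to 2.21 with KIN28 and from 0.817 to 4.27 with POG1. At chrIX:144104-144268 forward (4050_at) it went from 0.914 to 3.48 and from 0.771 to 3.19. At chrIV:241211-241405 forward (5903_at) it went from 0.281, under the floor, to 1.24 and from 0.397 to 1.69. Their fitted log2 changes were 2.12, 1.99 and 1.89, with limma adjusted p values of 0.0135, 0.0127 and 0.0152. Among the rises that followed, chrXV:850067-850213 forward (8089_at) went from 7.15 to 19.5 and from 6.33 to 15.7 (limma adjusted p 0.0254). It had the highest signal at 60 min of the unmatched regions that rose.

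Other regions had their largest rise with POG1. The region chrIV:192383-192544 forward (5901_at) read 2.06 and 4.78 with KIN28 and 0.974 and 5.02 with POG1, 2.32- and 5.15-fold higher (limma adjusted p 0.0311). The region chrXIII:480923-481186 forward (9241_at) read 1.72 and 4.0, then 0.567 and 2.86, 2.33- and 5.03-fold higher (limma adjusted p 0.0305). In both, the POG1 culture began lower and the arrays of 60 min were nearer to each other. The region chrXV:974085-974252 reverse (8067_i_at) read 0.828 and 2.73, then 0.964 and 4.84 (limma adjusted p 0.0152). The region chrXIII:483361-483495 forward read 0.278 and 0.804, then 0.452 and 1.73 with 9219_i_at, which rose (limma adjusted p 0.0354), and 0.191 and 0.582, then 0.366 and 1.83 with 9220_r_at, which did not pass. A further set for it, 9221_f_at, was under the floor on all 4 arrays.

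The falls included regions with a high signal before lithium. The set 5467_f_at, chrV:52391-52549 reverse, read 56.4 and 8.98 with KIN28 and 55.2 and 6.0 with POG1, 6.28- and 9.2-fold lower (limma adjusted p 0.00957). A second set for exactly that region, 5466_i_at, stayed below the floor on all 4 arrays, at 0.000661 to 0.0149. A set for an overlapping frame, 5465_f_at, went from 5.09 to 1.48 and from 4.50 to 1.82 (limma adjusted p 0.0235). The suffix _f marks a set that detects a family of related sequences, so the source of its signal cannot be told from this set.

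On chromosome XV, frames that overlap on the forward strand fell together. The set 8048_at, chrXV:1004147-1004431, read 6.67 and 1.37, then 5.47 and 0.575, 4.88- and 9.52-fold lower (limma adjusted p 0.0123). All 3 sets for chrXV:1004376-1004510 fell too. The set 8094_f_at went from 3.91 to 0.628 and from 3.5 to 0.11, 8092_i_at from 4.18 to 0.809 and from 3.74 to 0.171, and 8093_r_at from 1.45 to 0.283 and from 2.09 to 0.317. The limma adjusted p values of the first 2 were 0.00957 and 0.012. In the POG1 culture all 3 lay under the floor at 60 min, and in the KIN28 culture only 8093_r_at did.

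Adjoining frames on other chromosomes fell together as well. On chromosome XIII, reverse strand, chrXIII:762446-762586 (9252_at) went from 9.15 to 2.21 and from 9.27 to 2.20. Its neighbour chrXIII:762597-762764 (9253_at) went from 7.01 to 1.23 and from 8.28 to 1.44. The changes were nearly equal in the 2 cultures, 4.13- and 4.21-fold for the first and 5.71- and 5.75-fold for the second, with limma adjusted p values of 0.0123 and 0.00967.

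On chromosome XIV, forward strand, chrXIV:89019-89186 (8775_at) went from 2.22 to 0.262 and from 1.78 to 0.159, at least 5.75- and 4.61-fold lower and above the floor at 0 min only. The next frame, chrXIV:89212-89394, went from 19.8 to 4.92 and from 8.91 to 2.29 with 8730_g_at (limma adjusted p 0.0127). Its other set, 8729_at, read 0.674, 0.27, 0.444 and 0.218 and did not pass (limma adjusted p 0.259).

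Single unmatched regions were also among the 10 falls of smallest p. The region chrXVI:718768-718944 reverse (7524_at) went from 2.42 to 0.329 and from 2.72 to 0.0144, which is at least 6.29- and 7.05-fold lower and above the floor at 0 min only. The region chrXIV:465994-466167 forward (8773_at) went from 8.15 to 1.96 and from 6.66 to 0.976 (limma adjusted p 0.0124). Beyond the 10, chrXIII:849877-850053 reverse (9267_at) went from 22.6 to 3.56 and from 17.3 to 4.83 (limma adjusted p 0.0146). All 3 regions were well above the floor on both arrays of 0 min. They were picked as falls, so the lower signal on both arrays of 60 min follows from that choice.

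**Figure D3:**
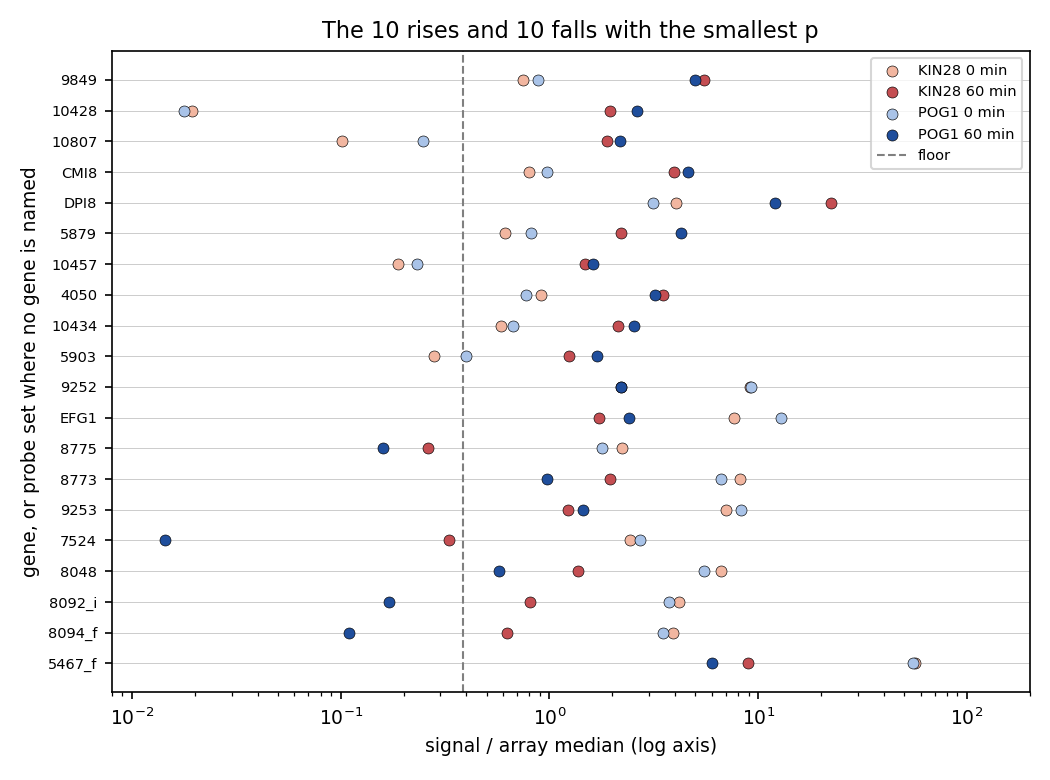
Signal over the array median (log x axis) on each of the 4 arrays for the 10 rises and the 10 falls with the smallest p, 1 line per set, named by gene or, without a gene, by probe set. Light points are 0 min and dark points 60 min, red is the KIN28 and blue the POG1 culture, and the dashed line is the floor at 0.385. Sets 10428_at, 10807_at, 10457_at, 8775_at and 7524_at were above the floor at 1 time only. In every line both dark points lie on the same side of both light points. This follows largely from the choice by p for a shared change. For the sets above the floor at 1 time only it holds by definition.

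Some changes were much larger in 1 culture. The region chrV:407032-407214 reverse (5476_at) read 9.89 and 1.41 with KIN28 but 9.74 and 7.52 with POG1, 7.0-fold and 1.29-fold lower. The region chrIX:26990-27169 forward (4009_at) read 2.48 and 1.43 with KIN28 and 4.17 and 0.627 with POG1, 1.74-fold and 6.66-fold lower. Neither passed the shared test (limma adjusted p 0.126 and 0.0683). The region chrVII:905006-905158 reverse (4685_at) read 5.39 and 2.06, then 7.29 and 1.29, 2.62- and 5.65-fold lower, and fell (limma adjusted p 0.0249). The region chrXIV:663707-663856 forward (8765_at) was lower in both, from 4.24 to 1.89 and from 3.75 to 0.351, 2.24-fold and at least 9.74-fold (limma adjusted p 0.0477). With 1 array per group, whether these differences between the cultures exceed the spread between replicates could not be tested.

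Among the sets matched to a gene with a symbol, 53 sets for 46 genes, 43 were above the floor on all 4 arrays and 3 on none. Of the 50 tested, 4 rose and 3 fell, where 7.34% and 8.69% of all sets did. Of the 66 sets for genes with only a systematic name, 28 were above the floor on all 4 arrays and 18 on none, and of 40 tested 2 rose and 2 fell. Those were YOL038C-A and YPL119C-A, which rose, and YOL097W-A and YMR230W-A, which fell. YMR230W-A fell with 9229_i_at only, which read 0.997 and 0.411 with KIN28 and 0.884 and 0.301 with POG1 (limma adjusted p 0.0315). Another set for that region had log2 changes of −0.78 with KIN28 and 1.39 with POG1, the opposite direction in the POG1 culture. A further set for it was under the floor on all 4 arrays. The direction for YMR230W-A thus depends on the set. YOL038C-A read 2.54 and 5.38 with KIN28 and 2.21 and 4.32 with POG1 (limma adjusted p 0.0493).

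The named genes that rose were CMI8, DPI8, PKP2 and RRT8. CMI8 (chrIV:1385513-1385758, reverse) read 0.802 and 3.95, then 0.975 and 4.59, 4.93- and 4.71-fold higher (limma adjusted p 0.0115). DPI8 (chrX:159321-159545, reverse) read 4.06 and 22.3, then 3.14 and 12, 5.49- and 3.8-fold higher (limma adjusted p 0.0127). It had the highest signal at 60 min of the sets that rose in the KIN28 culture. PKP2, which encodes a mitochondrial kinase of pyruvate dehydrogenase, read 1.12 and 5.70, then 1.96 and 6.15 through its SAGE frame (chrVII:393563-393697, forward), with a limma adjusted p of 0.0166. RRT8 (chrXV:241012-241308, reverse) read 0.565 and 1.17, then 0.207 and 1.01, 2.08-fold and at least 2.61-fold higher (limma adjusted p 0.0361).

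The named genes that fell were MNC1, EFG1 and MHF1. MNC1 read 6.31 and 0.77, then 9.44 and 2.30, 8.19- and 4.11-fold lower (limma adjusted p 0.0135). EFG1, which acts in the maturation of 18S ribosomal RNA, read 7.69 and 1.73, then 12.9 and 2.40 with 4670_f_at (chrVII:1037741-1037887, reverse), 4.45- and 5.36-fold lower (limma adjusted p 0.0119). Another set for the same frame, 4669_i_at, was under the floor on all 4 arrays, and 4671_at, for an overlapping frame, read 0.676, 0.20, 0.599 and 0.407 and did not pass (limma adjusted p 0.125). MHF1, a histone-fold protein that acts at stalled replication forks and at kinetochores, read 26.2 and 14.0 with KIN28 and 9.54 and 3.35 with POG1 (chrXV:159172-159444, forward; limma adjusted p 0.0453).

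For 13 of the matched genes the array also holds a set that is not among the SAGE ORFs, matched to the same gene. For 4 of the 13, COG3, YAL063C-A, YAL064W and YEL073C, a SAGE set lies on another chromosome than the gene. Those sets were looked up after the values above were known. For PKP2 the other set read 0.431 and 1.05, then 0.658 and 1.48, and rose (limma adjusted p 0.0323). For RRT8 it read 1.25 and 3.16, then 1.34 and 3.56, and rose (limma adjusted p 0.0252). For EFG1 it read 1.58 and 0.625, then 2.46 and 0.78, and fell (limma adjusted p 0.0229). All 3 changes thus had the direction that the SAGE frame gave. For the other 10 genes the other set did not pass or was too dim to test. Of these, SAP155 had opposite signs in the SAGE frame (log2 changes of 0.51 and 0.4) and in the other set (−0.8 and −0.83), and neither passed. QCR8, a subunit of respiratory complex III, read 0.863, 1.10, 0.89 and 0.515 through its SAGE frame, a log2 change of 0.36 with KIN28 and −0.79 with POG1. Its other set read much higher, 18.2, 19.2, 14.1 and 18.6, with log2 changes of 0.08 and 0.4.

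Other named genes encode small mitochondrial proteins, and none of their sets passed the test. ATP19, subunit k of the ATP synthase, read 14.8 and 13.0 with KIN28 and 16.6 and 8.28 with POG1, 1.14- and 2.00-fold lower (limma adjusted p 0.232). MIC10, a core subunit of the complex that shapes cristae junctions, read 23.1 and 23.4, then 23.2 and 15.0 with 6760_g_at. COX26, a subunit of cytochrome c oxidase, read 0.592 and 0.359, then 1.03 and 0.473 (limma adjusted p 0.0857). MIM2, which acts in the insertion of outer membrane proteins, read 4.46 and 2.78, then 4.45 and 1.39, 1.61- and 3.2-fold lower (limma adjusted p 0.0682). Of the assembly factors of cytochrome c oxidase, COA3 read 11.6, 13.2, 8.45 and 7.59, COA2 0.934, 0.953, 1.24 and 0.78, and COX19 1.95, 1.31, 0.914 and 1.33. SDH6, an assembly factor of succinate dehydrogenase, read 6.86, 8.74, 6.88 and 7.54, and ISD11, which acts in iron-sulphur cluster synthesis, read 2.24, 2.41, 3.20 and 2.28.

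The following genes, for proteins of the nucleus, of DNA replication or of splicing, did not pass. TFB5, a subunit of TFIIH like Kin28, read 2.17 and 3.34 with KIN28 and 2.67 and 2.51 with POG1, a 1.54-fold higher and a 1.07-fold lower signal (limma adjusted p 0.566). MHF2, the partner of Mhf1, read 4.18 and 2.34, then 4.01 and 2.04, 1.78- and 1.97-fold lower (limma adjusted p 0.065). DAD4 and HSK3, subunits of the DASH complex at the kinetochore, read 4.66, 6.70, 5.91 and 4.32, and 1.53, 1.93, 1.09 and 1.87. HUB1, a ubiquitin-like protein that acts in splicing, read 4.0 and 3.45, then 3.78 and 1.30, 1.16- and 2.9-fold lower (limma adjusted p 0.171). HUG1, an inhibitor of ribonucleotide reductase, was near the floor at 0.328, 0.461, 0.397 and 0.81. YSF3, a splicing factor subunit, was above the floor only on the arrays of 0 min, at 0.491 and 0.759.

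The following genes, for proteins of membranes or of translation, did not pass. KSH1, which acts in the secretory pathway (chrXIV:586598-586816, reverse), read 9.37 and 12.2 with KIN28 and 8.18 and 2.76 with POG1, 1.31-fold higher and 2.96-fold lower (limma adjusted p 0.45). TSC3, an activator of serine palmitoyltransferase, read 9.56, 13.1, 12.1 and 11.7. VTC4, a subunit of the polyphosphate polymerase, read 7.37, 11.6, 6.91 and 9.77, and SNA2, a small membrane protein, 6.09, 10.4, 6.70 and 10.5. Both were higher at 60 min in both cultures by under 2-fold, with limma adjusted p values of 0.169 and 0.111. TMA20, a ribosome-associated protein, read 7.92, 7.23, 10.4 and 5.34, and LSO2, which also binds ribosomes, 3.82, 3.90, 6.39 and 3.84. IGO2, an endosulfine that inhibits a phosphatase, read 2.30, 2.56, 2.74 and 1.66.

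The other named genes did not pass either. MCO6 read 6.43, 3.55, 5.01 and 2.8, and MRA1 7.21, 4.97, 8.51 and 4.66, lower at 60 min in both cultures by under 2-fold (limma adjusted p 0.074 and 0.122). SKG1 read 2.19, 3.21, 2.3 and 3.77, and MIN6 2.52, 3.41, 2.28 and 2.88, higher at 60 min in both by under 2-fold (limma adjusted p 0.14 and 0.317). CMI7 read 4.39 and 4.81, then 6.17 and 3.04, 2.03-fold lower with POG1 (limma adjusted p 0.424). MCO12 read 1.67, 1.92, 1.67 and 1.24, and WIP1, a kinetochore protein, 1.25, 1.82, 1.86 and 1.62. CPP3 read 2.51 and 3.78 with KIN28 and 6.42 and 5.78 with POG1, and MIN7 1.06 and 1.46, then 2.55 and 1.82. CPP3 and MIN7 were thus 2.56- and 2.41-fold lower with KIN28 at 0 min. Both sets for ICS2 were near the floor and went different ways in the KIN28 culture, 0.773 to 0.4 with 7025_at and 0.485 to 1.19 with 7026_at.

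**Figure D4:**
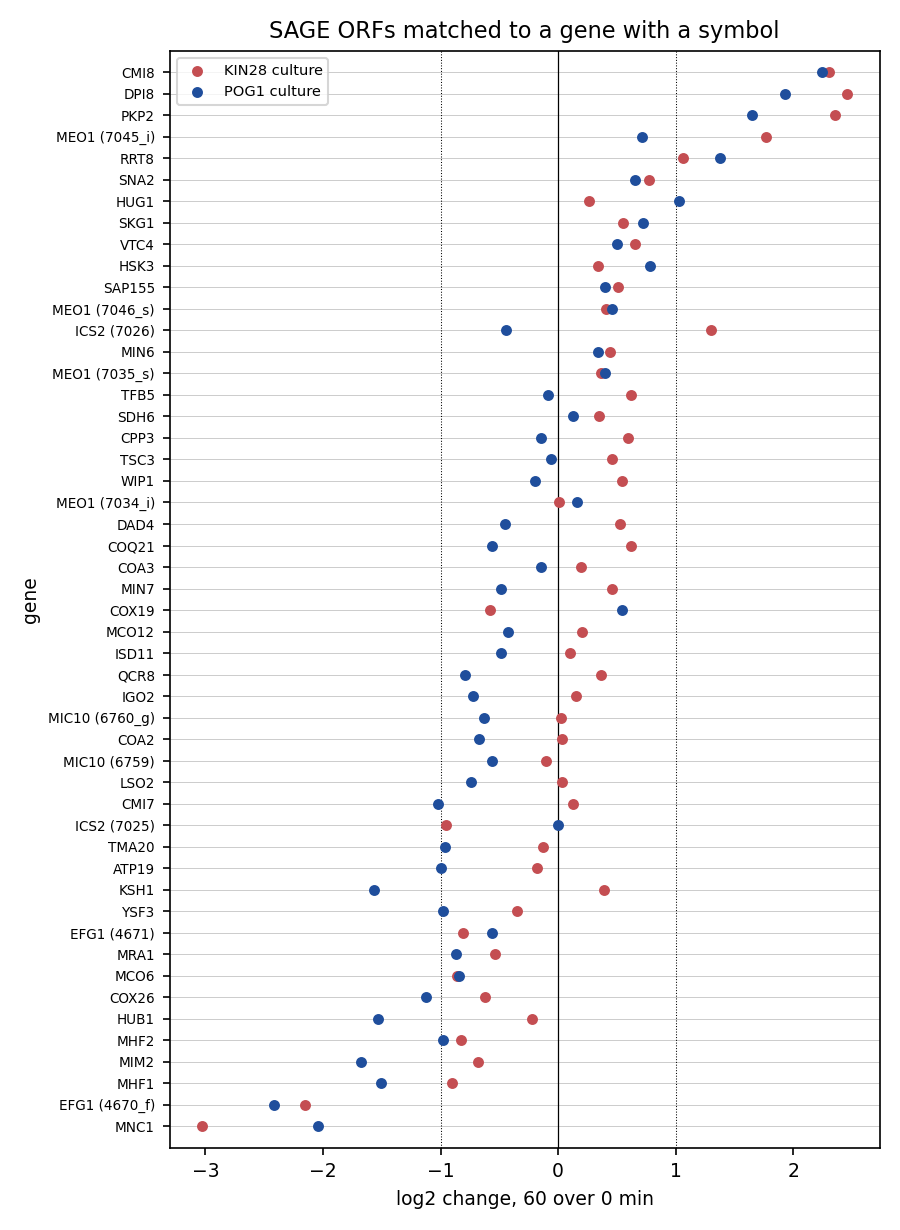
Log2 change from 0 to 60 min in the KIN28 (red) and POG1 (blue) cultures for the 50 sets matched to a gene with a symbol and above the floor on at least 1 array, with values under the floor set to it. Genes with several sets carry the set's name, and dotted lines mark a 2-fold change. CMI8, DPI8, PKP2 and RRT8 lie beyond the right line in both cultures, and MNC1 and the 4670_f_at set of EFG1 beyond the left one.

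Between the cultures, the direction is KIN28 over POG1. At 0 min 555 sets were compared, of which 15 (2.7%) were at least 2-fold higher, against 3.23% of all sets, and 26 (4.68%) lower, against 3.78%. At 60 min 552 were compared, of which 27 (4.89%) were higher, against 5.04% of all sets, and 35 (6.34%) lower, against 4.27%. In either direction the shares were 7.39% at 0 min, against 7.01% of all sets, and 11.2% at 60 min, against 9.31%. At both times, 4 sets (0.613% of the 652) were higher and 6 (0.92%) lower, against 0.338% and 0.506% of all sets. These differences also have 1 array on each side and no test, and their number depends on the scaling. In either direction 41 sets were apart at 0 min and 62 at 60 min. With no scaling it was 101 and 62, and with the hybridization controls 59 and 168.

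MHF1 was among those higher with KIN28 at both times, 2.75-fold at 0 min and 4.19-fold at 60 min. KSH1 was 1.14-fold apart at 0 min and 4.44-fold higher with KIN28 at 60 min. COQ21 (chrII:680321-680521, forward) read 4.99 and 7.66 with KIN28 and 3.53 and 2.39 with POG1, 3.2-fold higher with KIN28 at 60 min. The unmatched frame downstream on the same strand, chrII:680595-680834 (7048_i_at), read 0.904 and 1.43, then 0.618 and 0.445, 3.22-fold higher at 60 min. Another set for it, 7049_s_at, was under the floor on all 4 arrays.

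Lower with KIN28 at both times was chrIX:385816-385959 reverse (4019_at), which read 1.03 and 0.305 with KIN28 and 3.04 and 1.44 with POG1, 2.95-fold at 0 min and at least 3.73-fold at 60 min. Its neighbour on the same strand, chrIX:386017-386157 (4020_at), read 0.825 and 0.454, then 2.50 and 0.954. Both fell with time (limma adjusted p 0.034 and 0.0499). The region chrV:284585-284719 forward (5453_at) read 0.256 and 1.05 with KIN28 and 1.31 and 2.24 with POG1, at least 3.39-fold lower with KIN28 at 0 min and 2.13-fold lower at 60 min.

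The other large differences between cultures were mostly at 1 time and at low signal. At 0 min, chrI:139298-139468 reverse (11274_at) read 2.73 with KIN28 and 1.02 with POG1, and 4.14 and 3.52 at 60 min. The sets 5464_i_at, 7526_i_at and 10461_at were 2.51-, 2.42- and 2.37-fold higher with KIN28 at 0 min, with no signal over 1.61 on any array. The sets 5319_at, 4668_at, 5478_i_at, 4697_at and 6778_i_at were 3.31-, 3.22-, 3.17-, 3.15- and at least 3.08-fold lower with KIN28 at 0 min, with no signal over 1.92. At 60 min the first 4 of these sets were under 2-fold apart, and 6778_i_at was at least 1.87-fold apart.

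At 60 min, chrXV:413491-413682 forward (8096_at) read 1.13 with KIN28 and 0.201 with POG1, at least 2.93-fold apart. The region chrX:227571-227705 reverse (10870_i_at) was above the floor only with POG1 at 60 min, at 1.53, at least 3.97-fold over KIN28. Another set for it, 10871_s_at, read 5.15, 3.38, 3.04 and 3.31 and did not show that difference. The region chrXVI:212813-212956 reverse (7516_at) read 0.901 and 0.65 with KIN28 and 1.15 and 2.43 with POG1, 3.74-fold lower with KIN28 at 60 min.

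Neighbouring frames were compared in pairs, a step chosen after the files had been seen. In the KIN28 culture the log2 changes of 2 sets for the same region differed by a median of 0.46 (22 pairs with both sets above the floor on at least 1 array). Frames that overlap on the same strand differed by 0.43 (26 pairs) and those within 300 nt of each other on the same strand by 0.46 (27 pairs). On opposite strands the median difference was 0.92 for overlapping frames (14 pairs) and 1.15 for frames within 300 nt (9 pairs). In the POG1 culture the values were 0.35, 0.6 and 0.49 on the same strand, with 25, 26 and 30 pairs, and 0.87 and 0.94 on opposite strands, with 21 and 15 pairs. The sets in overlapping pairs on opposite strands had a median absolute log2 change of 0.53 with KIN28 and 0.44 with POG1, against 0.72 and 0.65 for those on the same strand. Of the 14 and 21 overlapping pairs on opposite strands, 1 in each culture changed at least 2-fold in opposite directions. Among pairs of sets for the same region, 0 of 22 did so with KIN28 and 2 of 25 with POG1. Among overlapping frames on the same strand it was 0 of 26 in each culture. Pairs share sets and arrays, so no test was made.

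**Figure D5:**
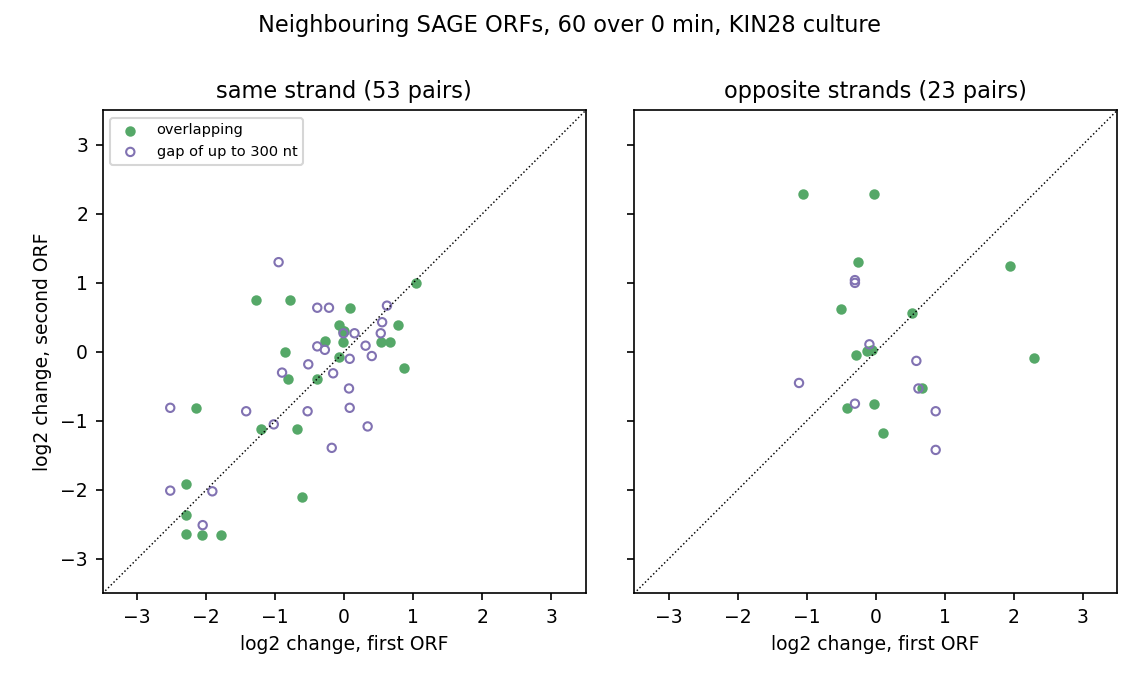
Log2 change from 0 to 60 min in the KIN28 culture of the first (x axis) and second (y axis) frame of each neighbouring pair, with 53 pairs on the same strand at left and 23 on opposite strands at right. Filled points are overlapping frames, open points frames within 300 nt, and the dotted line marks equal changes. On the left panel the pairs lie closer to the line, with median differences of 0.43 and 0.46 against 0.92 and 1.15 on the right.

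Some of the frames described above had a partner on the other strand with a different change. The frame chrX:447886-448050 forward, which overlaps the rising frame chrX:448028-448162, read 4.78 and 2.31 with KIN28 and 3.19 and 2.55 with POG1 (10820_at), a log2 change of −1.05 in the culture where that of its partner was at least 2.29. The other set for that frame, 10821_g_at, read 0.42, 0.412, 0.537 and 0.518, log2 changes of −0.03 and −0.05. Across from CMI8, chrIV:1385570-1385815 forward (5874_at) read 0.41, 0.358, 0.306 and 0.271, above the floor only with KIN28 at 0 min. Across from the falling frame 8765_at, chrXIV:663592-663789 reverse (8745_at) read 0.599, 0.642, 0.961 and 1.25. Across from KSH1, chrXIV:586648-586803 forward (8741_at) read 0.264 and 0.148 with KIN28 and 0.411 and 1.37 with POG1, 3.34-fold higher in the culture where KSH1 was 2.96-fold lower. Other partners moved the same way. DAD4 and 5799_at across from it had log2 changes of 0.53 and 0.57 with KIN28 and of −0.45 and −0.73 with POG1. The frame chrXI:145751-145927 reverse (10458_at), across from 10457_at, read 0.269 and 0.915, then 0.66 and 0.891, higher at 60 min in both cultures as its partner was.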

How the data were processed

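RNA of 4 samples was hybridized to 1 array each. Each file holds a raw intensity per probe set, which the authors deposited on a linear scale. The software behind it is not given in the sources used here. A ratio stands beside it, which per the file headers is that intensity over a control value, equal to the array median. The series-wide table of deposited intensities differs from the files by at most 0.05. The intensity was divided by the array median, values under the floor (0.385) were set to it, and log2 was taken. No detection calls or replicates were analysed here, and the number of arrays limits the precision.

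The members and lists were chosen with earlier results of these data known. The negative controls were the mouse sets and the B. subtilis sets whose transcript did not look spiked: dap, lys, phe and thr were left out because their 3′ set was above their 5′ set on all 4 arrays, a criterion set after the values were seen. The word rule for members, the comparison classes, the pairs of neighbours and the other sets of matched genes were also chosen after the files were seen.

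A 2-fold difference on at least 1 array above the floor was called, with no test. limma (lmFit, eBayes, Benjamini-Hochberg adjustment over all 6905 probe sets tested, threshold 0.05) tested time with culture as a block. The code was also run on simulated data with 1 noise level for all sets and no floor. That run checked the code only and not the p values of these data. Named were the 12 brightest sets, the 10 largest rises and falls per culture, the 6 largest differences between cultures per direction and time, every set above the floor matched to a gene with a symbol, the 10 rises and 10 falls of smallest p, any set with opposite changes, and the 2 sets on each side of the floor. Sets that share or adjoin their regions are given beside them. The sets 8089_at, YOL038C-A, YPL119C-A, YOL097W-A and YMR230W-A, and the bright neighbour of YCR024C-B, are outside that rule and were picked after their values were seen. Genes came from the platform annotation, updated through RefSeq gene records. Alternatives changed the scaling, floor, negative controls, probe sets, filter, block and fold. The fit used limma 3.58.1 in R 4.3.3. Tables were made in Python 3.11.15 with pandas 2.3.3 and numpy 2.4.6, and figures with matplotlib 3.10.9.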

Additional observations from a re-analysis of the deposited data

How the results depend on the processing

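Of the 17 other processing settings and the fold thresholds tried, quantile normalization, the deposited ratio, the series-wide table, the highest negative control or the mouse controls as floor, antisense controls, sets without suffix, sets matched by letters alone, a stricter rule of detection and a prior that follows the mean signal left every count within 1.5 times and every median within 0.1 log2 of the value reported. The 1.5-fold threshold gave 106 higher and 117 lower in the KIN28 culture, 123 and 146 in the POG1 culture, and 148 and 170 differences between cultures at 0 and 60 min. The 3-fold threshold gave 14 and 24, 25 and 28, and 10 and 13 in the same order. A floor at the 20th percentile gave 68 and 90, 95 and 104, and 102 and 122, and only 16 rises and 17 falls by limma. The cause was not tested.

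With all B. subtilis sets as negative controls, a choice made after the data were seen, the floor was 1.84 and 114 sets were above it on all 4 arrays. The counts were then 11 higher and 26 lower with KIN28, 11 and 31 with POG1, and 4 and 13 between cultures. With no scaling 88 sets were higher and 30 lower with KIN28, 130 lower with POG1, and 101 apart at 0 min. The medians of the members were then 0.25 and −0.32. Scaling by the hybridization controls, also chosen after the data were seen, gave 134 higher with KIN28, 129 lower with POG1, 168 apart at 60 min, medians of 0.34 and −0.32, and 19 rises and 21 falls by limma. Scaling by the 75th percentile moved the KIN28 median to −0.13.

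In limma, leaving out the culture block, which pairs 0 and 60 min of each culture, gave 18 rises and 27 falls, and no filter on dim sets gave 0 rises and 0 falls (57 and 62 at an unadjusted p under 0.05). The direction of the 20 sets of smallest p was kept wherever they were fitted, and they no longer passed in 25 of 325 refits, 20 of them with no filter and 5 with the B. subtilis floor. Not all of these refits could differ. Leaving out suffixed sets or adding those matched by letters alone changed the members and not the fit, and the series-wide table holds nearly the same intensities. All refits used the arrays on which the 20 sets were picked, so the kept direction is no separate support. Each group has 1 array, so there are no replicate numbers to pair by. The floor limits low signals: a change under it cannot be seen, and single arrays give no replicate error.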
